A study of Mus musculus with 4 samples.

Results

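The genes described here are 58 genes of mitosis: the cyclins and kinases that start it, the proteins of the spindle, kinetochore and chromosome, and those that separate the daughter cells. They were chosen by symbol from a list of these roles, by a rule that uses no measured value though with earlier results of these libraries known, and all 58 were found among the 39056 genes of the count table and reached 1 CPM in every library. They were measured in 4 RNA-seq libraries of polyadenylated RNA from the lungs of S1PR1-GFP reporter mice, in which green fluorescent protein reports the sphingosine-1-phosphate receptor S1PR1. Of these, 1 library was labelled no LPS, and 1 each was labelled 8, 16 and 20 h with lipopolysaccharide (LPS), a bacterial endotoxin given into the peritoneum at 10 mg/kg. All 4 carry the reporter and were gated as GFP-positive, CD31-positive and CD45-negative, a gate for S1PR1-positive endothelial cells, and the labels do not give the animals' age or how many animals made up a library.

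Mitosis is prepared in the G2 phase, when cyclins A and B bind CDK1 and the transcription factor FOXM1 and the MuvB complex switch on a shared set of genes. Polo-like and Aurora kinases then drive centrosome maturation and chromosome condensation, the Ndc80 complex at the kinetochore holds microtubule ends, and the spindle checkpoint blocks anaphase until all chromosomes are attached. The CDC20-bound anaphase-promoting complex then has cyclin B and securin destroyed, and a central spindle with a contractile ring divides the cell. Transcripts of these genes are low in resting cells and abundant in cycling ones, and adult lung endothelium is mostly quiescent but can divide after injury. In RNA from a whole sorted population, a change in the number of cells in G2 and mitosis and a change in mitotic RNA per cell cannot be told apart.

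The libraries held 27566454 to 28905776 reads each, and a level that 0 reads would still allow (3 reads) lay between 0.104 and 0.108 CPM (read counts scaled to a library of standard size), far under the lowest level of any of the 58 genes, 9.62 CPM. Defining transcripts of the labelled cell type were close to absent. Of 13 endothelial markers 2 reached 1 CPM in any library, Erg, Emcn and Cldn5 had 0 reads in all 4, and Pecam1, which encodes CD31, had 7, 2, 2 and 1 reads in the order of labels no LPS, 8 h, 16 h, 20 h. Summed over the endothelial list the level was 5.77, 8.74, 8.30 and 5.99 CPM in that order of labels, and S1pr1 had 27, 87, 79 and 29 reads. Leukocyte markers (6 of 10 reaching 1 CPM, with Cd3e at 0) summed to 6.69 to 9.38 CPM over the libraries. Lung epithelial markers (0 of 8 reaching 1 CPM, with Sftpb and Nkx2-1 at 0) summed to 0.453 to 1.10 CPM, and smooth muscle and pericyte markers (1 of 6) to 2.09 to 3.39 CPM. Fibroblast markers (6 of 10, with Tcf21 at 0 and Col1a1 at no more than 4 reads) summed to 2815, 3124, 3246 and 3007 CPM, carried by Vim, Prrx1 and Col3a1. The markers therefore go against the label, so each hour below names the library with that label and nothing more. The share of mitochondrially encoded reads was 1.80%, 1.36%, 1.40% and 1.90% with no LPS and at 8, 16 and 20 h. It was low in the libraries in which the mitotic genes described below were high, and its part in them was not tested.

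Many mitotic promoters carry a cell cycle genes homology region (CHR, TTTGAA), bound by the MuvB complex, near the transcription start and a CCAAT box, bound by the factor NF-Y, upstream of it. Promoter windows from RefSeq (build GRCm38.p6, 250 bases before the start to 50 after it) were matched by symbol for 49 of the 58 genes. The 5 windows below were picked with the ratios in view and do not stand for the group. Ccnb2, Cenpa and Plk1 are among the genes with large ratios at 8 and 16 h. Nusap1 had the largest ratio of all 58, and Ckap2 is a spindle gene with a ratio near 0. Each runs 5′ to 3′ on the gene's strand, and capitals mark the CHR and CCAAT motifs or their reverse complements.
Ccnb2 (chr9:70421505-70421804, minus strand): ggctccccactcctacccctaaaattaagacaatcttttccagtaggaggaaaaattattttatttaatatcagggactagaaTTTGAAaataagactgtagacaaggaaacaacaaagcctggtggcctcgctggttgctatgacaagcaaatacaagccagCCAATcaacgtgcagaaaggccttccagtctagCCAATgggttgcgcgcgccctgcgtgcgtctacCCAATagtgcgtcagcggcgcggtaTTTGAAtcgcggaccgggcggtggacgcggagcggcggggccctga
Cenpa (chr5:30666636-30666935, plus strand): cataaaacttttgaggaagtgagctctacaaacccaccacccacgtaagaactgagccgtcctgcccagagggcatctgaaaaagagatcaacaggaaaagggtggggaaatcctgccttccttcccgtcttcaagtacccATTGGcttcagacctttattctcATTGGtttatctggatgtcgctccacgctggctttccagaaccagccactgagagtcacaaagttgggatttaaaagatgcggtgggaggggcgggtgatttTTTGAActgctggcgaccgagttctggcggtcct
Plk1 (chr7:122159185-122159484, plus strand): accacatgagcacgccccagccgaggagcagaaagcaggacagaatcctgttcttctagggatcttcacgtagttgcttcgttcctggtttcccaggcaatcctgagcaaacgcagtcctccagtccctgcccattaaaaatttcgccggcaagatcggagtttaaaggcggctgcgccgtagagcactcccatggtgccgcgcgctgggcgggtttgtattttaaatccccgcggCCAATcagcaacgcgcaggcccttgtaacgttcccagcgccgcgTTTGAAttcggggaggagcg
Nusap1 (chr2:119618048-119618347, plus strand): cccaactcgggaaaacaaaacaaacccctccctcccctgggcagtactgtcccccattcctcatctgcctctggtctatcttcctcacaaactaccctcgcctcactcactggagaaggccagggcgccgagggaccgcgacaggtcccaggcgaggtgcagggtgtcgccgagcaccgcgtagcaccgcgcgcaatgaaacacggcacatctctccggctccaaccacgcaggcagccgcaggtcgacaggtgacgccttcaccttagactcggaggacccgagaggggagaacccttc
Ckap2 (chr8:22185770-22186069, minus strand): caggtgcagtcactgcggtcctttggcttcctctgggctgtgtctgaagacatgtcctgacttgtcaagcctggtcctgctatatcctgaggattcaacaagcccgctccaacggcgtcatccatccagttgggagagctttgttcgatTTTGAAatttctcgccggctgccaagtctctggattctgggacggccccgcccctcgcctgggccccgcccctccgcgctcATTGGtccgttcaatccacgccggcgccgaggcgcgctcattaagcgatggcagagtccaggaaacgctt
The Ccnb2 window holds 2 TTTGAA and 3 CCAAT matches, that of Cenpa 1 and 2, and those of Plk1 and Ckap2 1 of each. In Ccnb2, Cenpa and Plk1 a TTTGAA match begins 4, 16 and 30 bases after the RefSeq start site, and in Ckap2 it begins 101 bases before it. Position did not follow the ratio in other genes. In Mki67, at a fold of 3.08 at 8 h over no LPS, the matches begin 116 and 98 bases before the start. Spc25 and Smc2, at folds of 1.32 and 1.24, have a match that begins 24 and 26 bases after the start. The Nusap1 window holds neither motif, which says only that these letters are not in these 300 bases.

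Over the whole group, TTTGAA on either strand stood in a window of 35 of the 49 genes (71.4%), beside 20.2% of 27025 genes with a window. Among 97 further mitotic genes with a window, drawn from the lists given further on, the share was 38.1%, and among 29 genes of a G1/S and DNA replication list it was 13.8%. CCAAT stood in 75.5% of the mitotic genes and 41.1% of all genes, and both motifs together in 63.3% and 7.97%. The GC box GGCGGG was at 75.5% against 37.9%, and the CHR variant TTTAAA at 24.5% against 14.9%. The windows of the mitotic genes were also richer in G and C, with a median of 59.0% against 52.8%. By position, 34 of 49 TTTGAA sites in the mitotic windows (69.4%) began in the last 100 bases, against 25.3% of 6737 sites in all windows. Sites are counted per window, so those of Ect2, Prc1 and Bub3, the 3 genes with 2 overlapping windows, count in each window. The log2 ratio of 8 h over no LPS had a median of 0.92 in the 35 genes with TTTGAA and of 0.84 in the 14 without it, and both sets ranged from near 0 to above 1.5. In the 30 genes with TTTGAA in the last 100 bases the median was 0.92, and in the 19 without it there 0.88. None of the motifs contains another, both strands were searched, and a match describes letters, not a binding site.

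**Figure D1:**
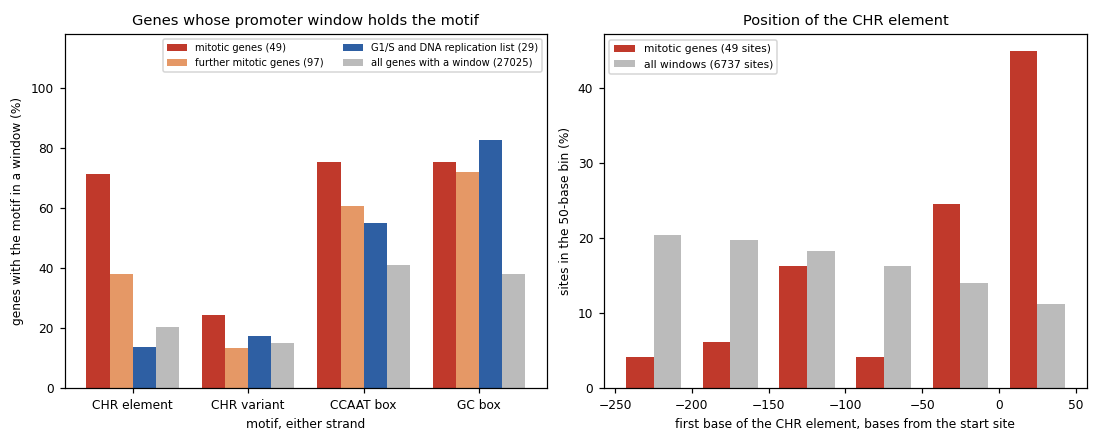
Left, the percentage of genes whose RefSeq promoter window holds each motif on either strand (TTTGAA is the CHR element, TTTAAA its variant, GGCGGG the GC box) for the mitotic genes, further mitotic genes, the G1/S list and all genes. Right, the percentage of TTTGAA sites, counted per window, by 50-base bin of distance from the start site, where 44.9% of the sites of mitotic genes lie in the bin after the start, against 11.2% of all sites.

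The main comparison was 8 h over no LPS, and in it the mitotic genes as a group lay above their level with no LPS. Their summed level was 6416 CPM at 8 h and 3520 CPM with no LPS, and they took 0.637% of reads (95% exact binomial interval 0.634 to 0.640) against 0.354% (0.352 to 0.357). They were not scarce in the lower libraries. Their median was 45.8 CPM with no LPS and 45.4 CPM at 20 h, above the 35.5 and 36.0 CPM of all measured genes. CPM is not scaled for gene length, which was not compared between these sets. With 1 library per label no pair of libraries can be tested, so "higher" and "lower" mean here a scaled fold of 2 or more whose 95% counting interval leaves out 1, with 1 CPM or more in the higher library. By that rule 21 of the 58 genes were higher at 8 h, 0 were lower and 37 were not called, where 4.19% of the 11803 measured genes (1 CPM or more in at least 1 library) were higher and 4.13% lower. The interval of the fold lay above 1 for 56 of the 58 and included 1 for the other two, Ckap2 and Pttg1, while 70.3% of all measured genes had an interval that left out 1 on either side. The median log2 ratio of the mitotic genes was 0.88, a fold of 1.84, and that of all measured genes was 0.00. Single genes of the cell type marker lists were called in the same libraries, and their part in the mitotic values was not tested. The collagen gene Col3a1 stood at 168, 81.8, 83.2 and 163 CPM in the order no LPS, 8, 16 and 20 h, and the matrix gene Dcn at 9.48, 2.96, 3.43 and 7.73 CPM, both lower at 8 and 16 h than with no LPS. The neutrophil gene S100a8, at 1.2, 0.209, 0.253 and 0.903 CPM, was lower in both as well. The macrophage gene Adgre1, at 0.425, 1.08, 2.78 and 0.867 CPM, was higher at 8 and 16 h than with no LPS, and Csf1r was higher at 16 h. From the endothelial list S1pr1, the receptor that the reporter marks, was also higher at 8 and 16 h, at 0.955, 3.03, 2.85 and 1.05 CPM.

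**Figure D2:**
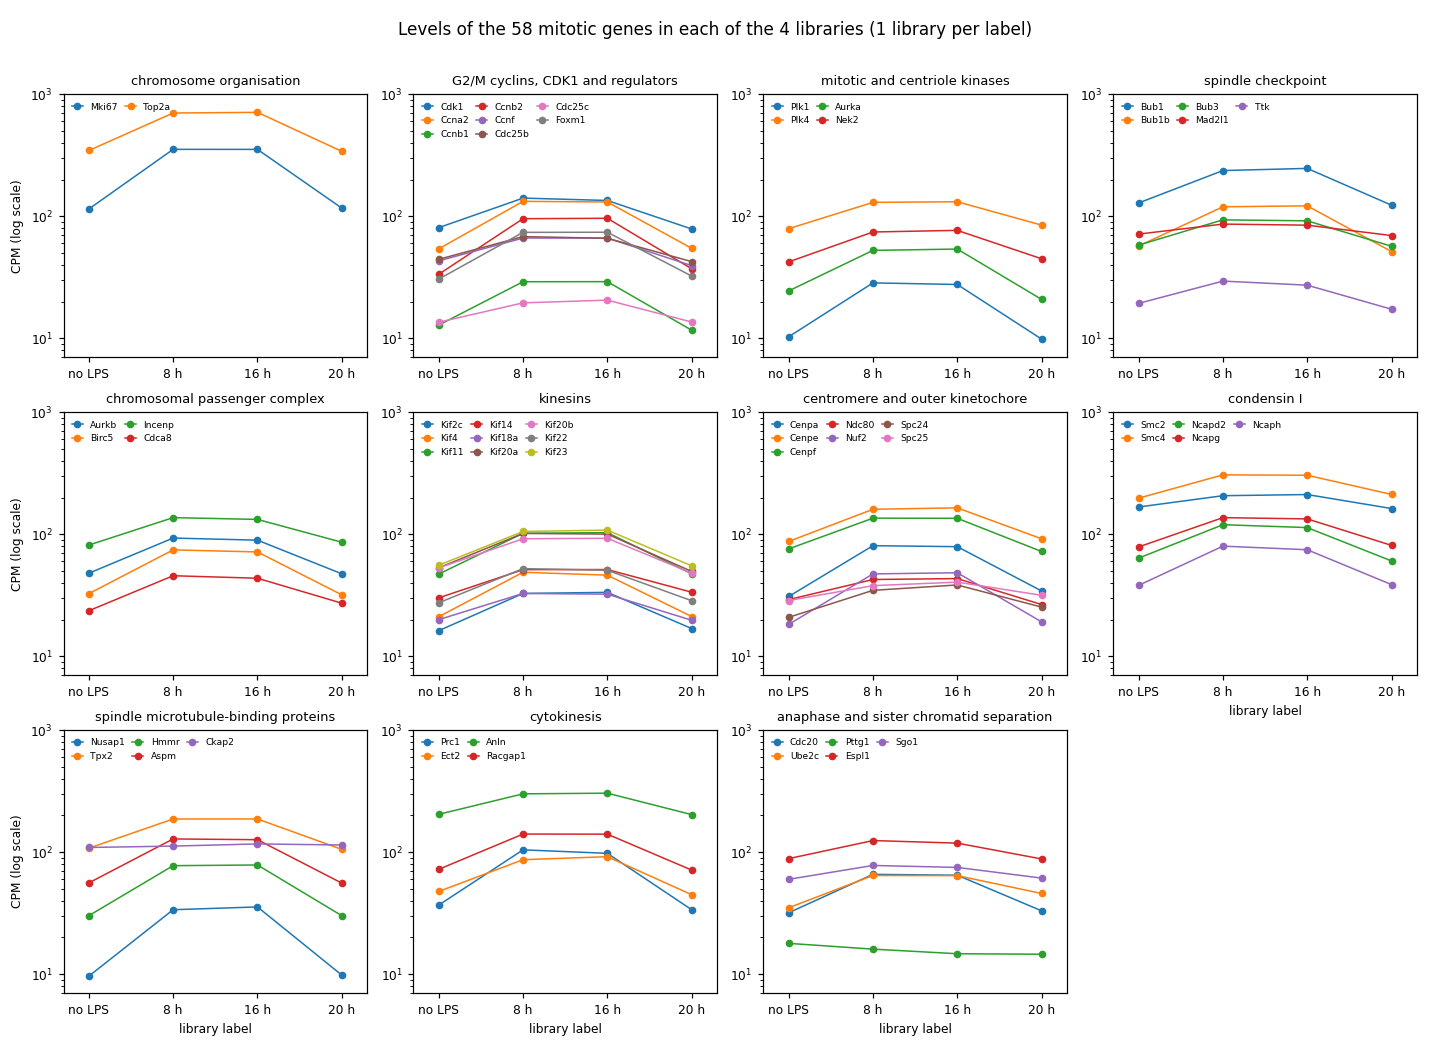
Level of each mitotic gene in each library (CPM, log axis), by role, with 1 library per label and lines joining the libraries of a gene. Nearly all lines form a plateau at 8 and 16 h between similar, lower levels with no LPS and at 20 h, except for Ckap2, which is nearly level, and Pttg1, which is highest with no LPS.

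Both genes of chromosome organisation were higher. Mki67 (chr7:135689784-135716361, mm10), the proliferation marker whose product coats mitotic chromosomes, stood at 115, 354, 354 and 117 CPM with no LPS and at 8, 16 and 20 h. Top2a (chr11:98992943-99024189), the topoisomerase that untangles sister DNA molecules, stood at 347, 704, 713 and 341 CPM. The libraries labelled 8 and 16 h were thus the high pair and those labelled no LPS and 20 h the low pair. The fold at 8 h over no LPS was 3.08 for Mki67 (2.96 to 3.21) and 2.03 for Top2a (1.98 to 2.08). The level of Top2a per length was 78.1 CPM per kb of exon at 8 h and 38.5 with no LPS, where the medians of the 58 were 15.2 and 8.96. It was the highest of the 58 in every library but that labelled 20 h, where Smc4 stood at 40.7 and Top2a at 37.9 CPM per kb.

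Of the 8 cyclins, CDK1 and their regulators, 4 were higher at 8 h, with a median log2 ratio of 0.99. Ccnb2, a B-type cyclin (chr9:70407692-70421547), stood at 33.5, 95.7, 96.5 and 37.2 CPM in the order of the labels. Ccna2, the cyclin of S phase and G2, stood at 54.2, 133, 131 and 54.7 CPM, and Foxm1, the transcription factor of the G2/M programme, at 30.6, 74.0, 74.1 and 32.4 CPM. Ccnb1, the main cyclin partner of CDK1 at mitotic entry, was less abundant, at 12.8, 29.1, 29.2 and 11.7 CPM. All 4 showed the same plateau at 8 and 16 h. The folds at 8 h were 2.85 for Ccnb2 (2.65 to 3.08), 2.45 for Ccna2 (2.31 to 2.60), 2.42 for Foxm1 (2.23 to 2.62) and 2.27 for Ccnb1 (2.0 to 2.57). The value of Ccnb1 is uncertain, since 23.4% of its 50-base stretches also occur in 6 other annotated genes, among them its pseudogene Ccnb1-ps. Exon bases overlap a gene on the opposite strand for 12.5% of Ccna2 (Exosc9) and 12.7% of Cdc25c (Gm3550), and the strand setting of the counts is not known. Cdk1 itself was not called, at 80.8, 141, 135 and 78.8 CPM and a fold of 1.75 (1.66 to 1.84). The smallest ratio of these 8 was that of Cdc25c, a phosphatase that activates CDK1, at 13.6, 19.5, 20.6 and 13.6 CPM, with a fold of 1.44 (1.26 to 1.65). Cdc25b and the F-box cyclin gene Ccnf both lay at a fold of 1.54 and were not called.

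Among the 4 kinases, Plk1 and Aurka were called at 8 h, and Nek2 and Plk4 were not. Plk1 (chr7:122159439-122169873), which drives centrosome maturation and mitotic entry, stood at 10.3, 28.5, 27.6 and 9.86 CPM, a fold of 2.77 at 8 h over no LPS (2.42 to 3.17), and 10.4% of its 50-base stretches also occur in Plk-ps1 or Gm44985. Aurka, the Aurora kinase of the spindle poles, stood at 24.5, 52.6, 54.0 and 20.9 CPM, a fold of 2.15 (1.96 to 2.36). Nek2, a kinase of centrosome separation, and Plk4, the kinase that starts centriole duplication, had the same order of libraries with smaller distances between them. Nek2 stood at 42.4, 74.5, 76.8 and 44.9 CPM (fold 1.76, 1.64 to 1.89), and Plk4 at 79.3, 130, 132 and 84.8 CPM (fold 1.64, 1.56 to 1.73).

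The spindle checkpoint genes held 1 called member of 5 and had a median log2 ratio of 0.69. Bub1b, which encodes the checkpoint kinase-like protein BubR1, stood at 57.1, 120, 122 and 51.5 CPM and was 2.10-fold higher at 8 h (1.98 to 2.23). Its kinase partner Bub1 was the most abundant of the group, at 129, 238, 247 and 124 CPM, with a fold of 1.84 (1.77 to 1.92) that was not called. Bub3, which brings both to the kinetochore, stood at 58.1, 93.7, 92.0 and 56.9 CPM, a fold of 1.61 (1.51 to 1.71). Ttk, the kinase MPS1 that starts the signal, lay at a similar fold of 1.52 (1.37 to 1.70), from levels of 19.4, 29.5, 27.3 and 17.3 CPM. Mad2l1, which encodes the checkpoint effector MAD2, had the smallest distance between libraries, at 71.6, 86.5, 84.7 and 69.7 CPM. Its fold of 1.21 (1.14 to 1.28) did not overlap the interval of any other checkpoint gene.

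The chromosomal passenger complex corrects faulty attachments and helps to place the cleavage furrow, and 1 of its 4 genes was called at 8 h. Birc5, which encodes survivin, stood at 32.6, 74.5, 71.6 and 31.9 CPM and was 2.29-fold higher (2.11 to 2.47). The kinase gene Aurkb stood at 47.9, 93.1, 89.5 and 47.4 CPM, and Cdca8, which encodes borealin, at 23.6, 45.7, 43.6 and 27.2 CPM. Both had a fold of 1.94 whose interval included 2 (1.82 to 2.07 for Aurkb, 1.76 to 2.13 for Cdca8), so counting error alone does not separate them from the threshold. Incenp, the scaffold of the complex, stood at 81.6, 137, 132 and 86.1 CPM, a fold of 1.68 (1.59 to 1.77).

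All 9 kinesin genes had an interval above 1 at 8 h, and 3 were higher. Kif4, a motor on chromosome arms, stood at 21.1, 48.8, 46.2 and 21.2 CPM, 2.31-fold higher at 8 h (2.10 to 2.55), with 15.1% of its exon bases under Pdzd11 on the opposite strand. Kif11, the motor that pushes the spindle poles apart, stood at 47.2, 102, 103 and 47.4 CPM, 2.16-fold higher (2.02 to 2.30). Kif2c, a kinesin that shortens microtubules at the centromere, stood at 16.2, 32.7, 33.4 and 16.9 CPM, 2.02-fold higher (1.80 to 2.26). These motors too were higher at 8 and 16 h than in the other libraries. Kif20a, which carries the passenger complex to the central spindle, stood at 53.1, 102, 100.3 and 49.6 CPM with a fold of 1.91 (1.80 to 2.04). That value is uncertain, because 29.3% of its exon bases overlap Cdc23 on the opposite strand, whose own level was 90.6 CPM at 8 h and 117 CPM with no LPS. Kif18a, which dampens chromosome movement before anaphase, had the smallest ratio of the kinesins, at 20.0, 32.7, 32.3 and 19.7 CPM with a fold of 1.64 (1.47 to 1.82). Kif22, Kif23, Kif20b and Kif14 lay between folds of 1.70 and 1.91.

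The 7 genes of the centromere and outer kinetochore had a median log2 ratio of 0.84, with 2 called. Cenpa, the histone H3 variant that marks the centromere, stood at 30.9, 80.6, 79.1 and 34.3 CPM, 2.61-fold higher at 8 h (2.41 to 2.82). Nuf2, a subunit of the Ndc80 complex, stood at 18.3, 47.3, 48.4 and 19.1 CPM, 2.59-fold higher (2.34 to 2.87). The 4 subunits of the Ndc80 complex, which are present in equal numbers in the protein complex, did not share a ratio at the RNA level. Next to Nuf2, the fold was 1.66 for Spc24 (1.5 to 1.85), 1.46 for Ndc80 (1.34 to 1.60) and 1.32 for Spc25 (1.21 to 1.45), so the interval of Nuf2 stood clear of the other 3. Spc25 had the smallest ratio of the group, at 28.6, 37.9, 40.5 and 31.6 CPM. The large corona proteins lay in between, with the motor gene Cenpe at 87.3, 160, 165 and 91.8 CPM (fold 1.84, 1.75 to 1.93) and Cenpf at 75.9, 136, 135 and 72.3 CPM (fold 1.79, 1.69 to 1.88).

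The 5 condensin I genes split by the part of the ring they encode. The 2 SMC subunits, which condensin II shares, were abundant and had the smallest folds. Smc2 stood at 167, 207, 212 and 163 CPM (fold 1.24, 1.19 to 1.29). Smc4 stood at 198, 307, 305 and 212 CPM (fold 1.55, 1.5 to 1.61). The 3 subunits found only in condensin I had larger folds, and their intervals lay above that of Smc4. Ncaph, the kleisin that closes the ring, stood at 38.1, 79.9, 74.7 and 38.7 CPM and was 2.10-fold higher at 8 h (1.95 to 2.26). Ncapd2 stood at 63.7, 120, 113 and 60.4 CPM (fold 1.88, 1.77 to 1.99), and Ncapg, with 13.4% of its exon bases under Lcorl on the opposite strand, at 78.7, 137, 134 and 81.1 CPM (fold 1.74, 1.65 to 1.83).

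Spindle microtubule-binding proteins held both the gene with the largest ratio of the 58 and a flat one. Nusap1 (chr2:119618298-119651244), which bundles spindle microtubules near the chromosomes, stood at 9.62, 33.7, 35.6 and 9.82 CPM, 3.5-fold higher at 8 h (3.06 to 4.02). Hmmr stood at 30.1, 77.5, 78.5 and 30.2 CPM (2.57-fold higher, 2.37 to 2.78), and Aspm, a spindle pole protein, at 56.0, 128, 127 and 55.8 CPM (2.29-fold higher, 2.16 to 2.43). Tpx2, the activator of Aurora A on the spindle, was not called, at 108, 187, 187 and 105 CPM (fold 1.73, 1.66 to 1.81). Ckap2 (chr8:22168160-22185819), another spindle protein gene, stood at 109, 112, 117 and 114 CPM, a narrow range. Its fold of 1.03 at 8 h (0.977 to 1.08) had an interval as narrow as those of the called genes, and its fold at 16 h was 1.07 (1.02 to 1.12).

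The 4 cytokinesis genes had a median log2 ratio of 0.91, with 1 called at 8 h. Prc1, which bundles the antiparallel microtubules of the central spindle, stood at 36.8, 104, 97.8 and 33.7 CPM, 2.84-fold higher at 8 h (2.64 to 3.05), and 11.1% of its exon bases overlap Rccd1 on the opposite strand. Racgap1, which joins Kif23 in the centralspindlin complex, stood at 72.3, 141, 140 and 71.3 CPM with a fold of 1.95 (1.84 to 2.05), beside 1.89 for Kif23 (1.78 to 2.01). The intervals of these 2 partners overlapped. Ect2, the exchange factor that activates RhoA at the furrow, stood at 47.6, 86.7, 91.7 and 44.8 CPM (fold 1.82, 1.70 to 1.95), and Anln, the anillin of the contractile ring, at 204, 301, 304 and 203 CPM (fold 1.47, 1.42 to 1.52).

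Genes of anaphase and sister chromatid separation had the lowest median of the 11 role groups, 0.49, and 1 of 5 was called. Cdc20, the activator of the anaphase-promoting complex, stood at 31.8, 65.8, 64.7 and 33 CPM, 2.07-fold higher at 8 h (1.91 to 2.24), and 10.6% of its 50-base stretches also occur in 3 other annotated genes. Ube2c, its ubiquitin-conjugating enzyme, stood at 35, 64.3, 64.2 and 45.8 CPM (fold 1.84, 1.70 to 1.99), and 22.8% of its exon bases overlap Tnnc2 on the opposite strand. Among the genes that act on cohesion itself, the separase gene Espl1 stood at 88.5, 124, 119 and 87.9 CPM (fold 1.41, 1.34 to 1.48). Sgo1, which encodes the cohesin protector shugoshin, stood at 59.9, 77.8, 74.9 and 61.3 CPM (fold 1.30, 1.22 to 1.38). Pttg1 (chr11:43420250-43426251), which encodes the separase inhibitor securin, was the only one of the 58 with a ratio below 0 at 8 h, at 17.9, 16.0, 14.7 and 14.6 CPM. Its fold of 0.897 had an interval that included 1 (0.789 to 1.02). The RefSeq window matched to it (chr11:43425932-43426231, minus strand) holds neither TTTGAA nor CCAAT, as was the case for Nusap1. That window lies wholly inside the gene as annotated here, so it leaves out the bases before the annotated start.

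In the order of folds at 8 h, 15 genes from Nusap1 to Kif11 had intervals wholly above 2, and the next 12, from Aurka to Kif23, had intervals that included it. Of those 12, the 6 with folds of 2.02 to 2.15 were called and the 6 with folds of 1.89 to 1.95 were not, so their order around the threshold is within counting error. Across the 58 genes the log2 ratio at 8 h bore little relation to level, exon length or GC content, with Pearson's r of -0.06, 0.01 and 0.17 across genes that share the same libraries.

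**Figure D3:**
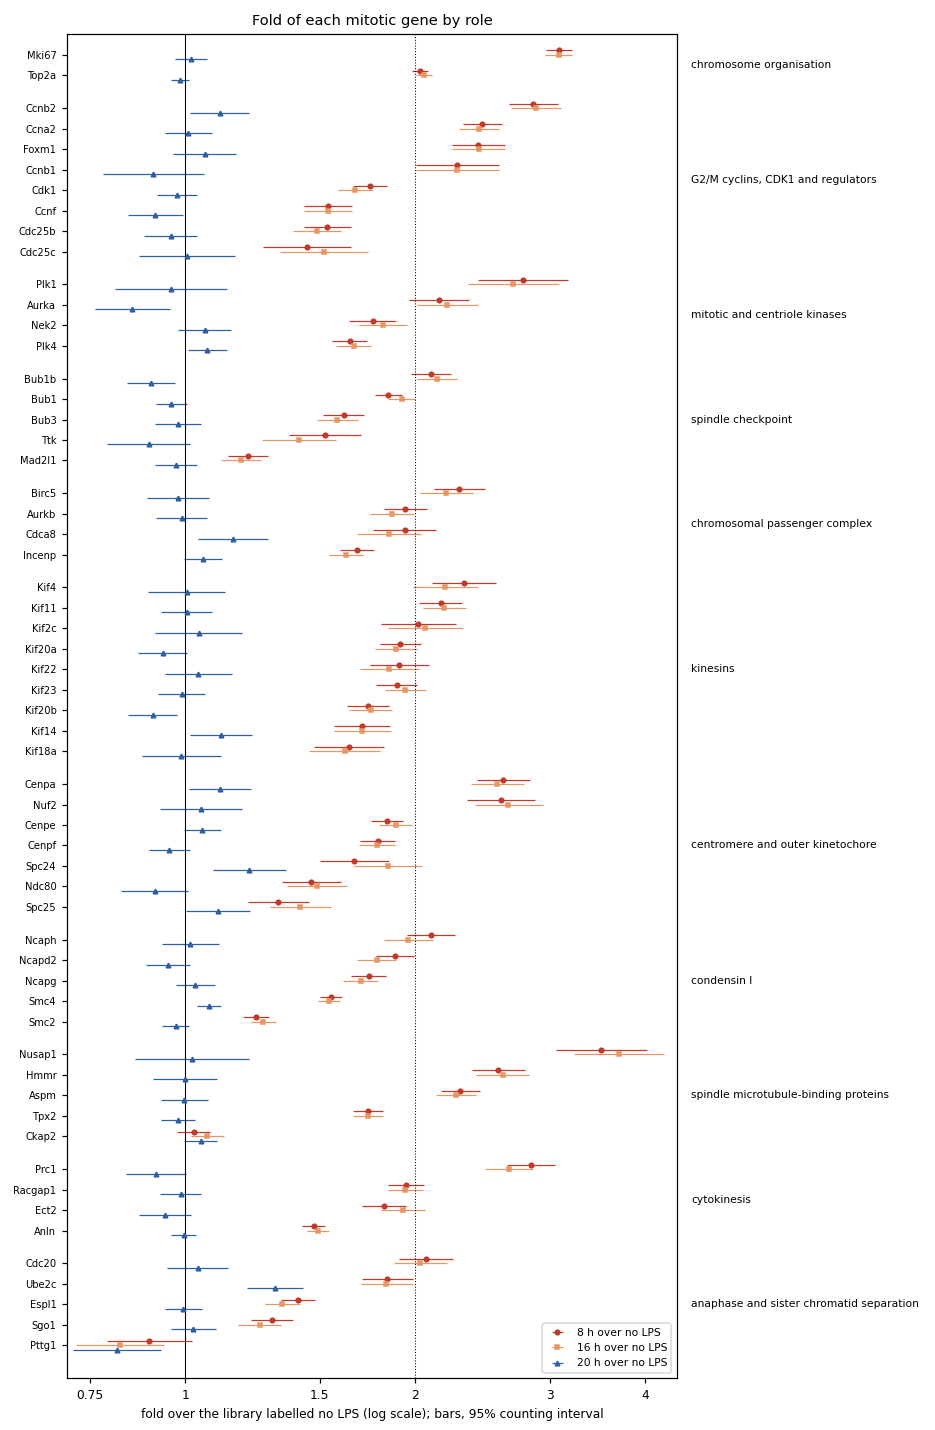
Fold of each mitotic gene over the library labelled no LPS (log axis) for the libraries labelled 8, 16 and 20 h, by role and by size at 8 h, with 95% counting intervals as bars and a dotted line at a fold of 2. The 8 and 16 h points lie together, mostly between 1.5 and 3, and the 20 h points lie around 1.

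The library labelled 16 h gave nearly the values of that labelled 8 h. Against no LPS, 20 of the 58 genes were higher at 16 h, 0 were lower and 38 were not called, where 4.13% of measured genes were higher and 4.09% lower, and the median log2 ratio was 0.88. The comparisons at 8 and 16 h share the library labelled no LPS. The 20 called genes were the same ones as at 8 h less Ncaph, which had a fold of 1.96 at 16 h (1.82 to 2.11). Nusap1 led again, at 3.69-fold (3.23 to 4.24), followed by Mki67 at 3.08-fold (2.96 to 3.21), Ccnb2 at 2.88-fold (2.67 to 3.10) and Plk1 at 2.69-fold (2.34 to 3.08). The interval lay above 1 for 57 genes, where 70.9% of measured genes had an interval that left out 1 on either side. It lay below 1 for Pttg1, at a fold of 0.822 (0.720 to 0.939). Set against the library labelled 8 h, that labelled 16 h had 0 of the 58 genes higher and 0 lower, where 0.161% of measured genes were higher and 0.0763% lower. The 58 log2 ratios of 16 h over 8 h ran from -0.12 to 0.15, and 8 of the intervals left out 1, where 10.6% of all measured genes did so. The widest of the 58 was that of Spc24, at 38.4 CPM at 16 h and 34.7 CPM at 8 h, a fold of 1.11 (1.01 to 1.21).

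The library labelled 20 h stood at the level of no LPS. Its summed level of the mitotic genes was 3528 CPM, against 3520 CPM with no LPS, and the share of reads was 0.354% in both. Of the 58 genes 0 were higher and 0 lower at 20 h over no LPS, where 0.551% of measured genes were higher and 0.102% lower, and the median log2 ratio was -0.01. Single genes still differed beyond counting error: 9 intervals lay above 1 and 5 below it, 14 of 58 beside 26.5% of all measured genes. The widest above 1 were Ube2c, at 45.8 CPM at 20 h against 35 CPM with no LPS (fold 1.31, 1.2 to 1.42), Spc24 (fold 1.21, 1.09 to 1.36) and Cdca8 (fold 1.15, 1.04 to 1.28). Below 1 lay Pttg1 (fold 0.814, 0.713 to 0.930), Aurka (0.852, 0.762 to 0.953), Bub1b, Kif20b and Ccnf.

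Between the libraries labelled 20 h and 16 h the difference ran the other way. At 20 h, 21 of the 58 genes were lower than at 16 h, 0 were higher and 37 were not called, where 3.85% of measured genes were lower and 4.63% higher, and the median log2 ratio was -0.91. Nusap1 was 3.62-fold lower at 20 h (3.16 to 4.15), Mki67 3.03-fold (2.91 to 3.15), Prc1 2.90-fold (2.69 to 3.13) and Plk1 2.80-fold (2.44 to 3.23). Aurka and Ccnb2 were each 2.59-fold lower. The called genes were not quite those of 8 h: Bub1 (2.0-fold lower, 1.92 to 2.09), Kif20a (2.02-fold, 1.90 to 2.16) and Ect2 (2.05-fold, 1.91 to 2.19) were lower here, while Cdc20 (1.96-fold, 1.81 to 2.12), Kif2c and Ncaph did not reach the threshold. At 8 h over no LPS the folds of these genes ran from 1.82 to 2.10. There the intervals of Bub1 (1.77 to 1.92) and Ect2 (1.70 to 1.95) lay wholly below 2. Over the role groups, 0 of 5 condensin I genes and 0 of 5 anaphase genes were lower at 20 h, against 4 of 8 cyclins and regulators and 3 of 5 spindle microtubule-binding proteins. These small counts depend on the threshold. The interval lay below 1 for 5 of 5 condensin I genes and 4 of 5 anaphase genes. Over all 11803 measured genes it lay below 1 for 4099, and 71.4% had an interval that left out 1 on either side.

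The high pair and the low pair can be set side by side without a shared library. The pairs were formed with the comparisons above known, so their likeness restates those results and is no separate support. The log2 ratios of 8 h over no LPS and of 16 h over 20 h had medians of 0.88 and 0.91 over the 58 genes, with a Pearson's r of 0.956 across genes, which are not replicates. The median distance between a gene's 2 ratios was 0.06, and the largest was 0.39, for Ube2c. By construction these distances are those between 20 h over no LPS and 16 h over 8 h. In 56 of the 58 genes both 8 and 16 h stood above both no LPS and 20 h, all but Ckap2 and Pttg1, and 40.4% of all measured genes had that order. A further 4869 measured genes had the opposite order, so the grouping of the libraries was shared by much of the transcriptome.

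**Figure D4:**
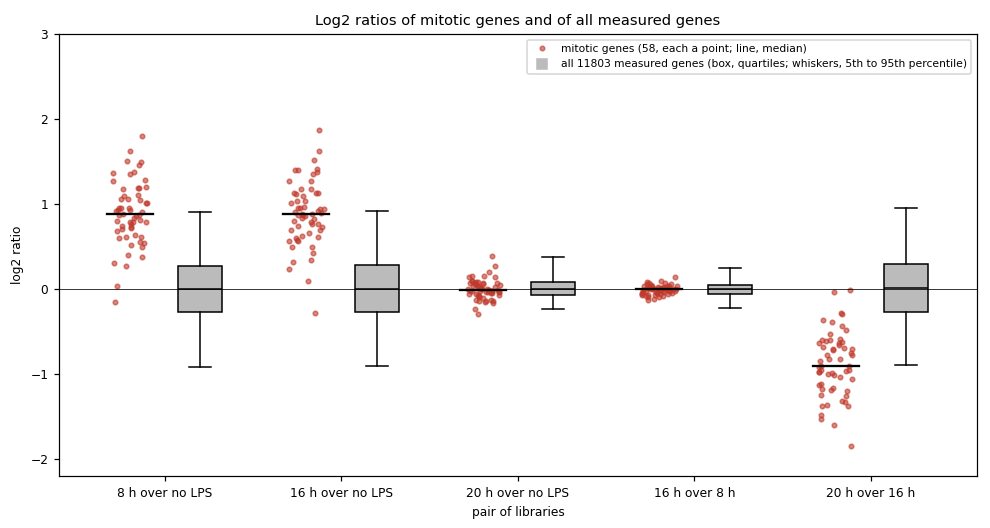
Log2 ratio of each mitotic gene (points, with the median as a line) beside all measured genes (boxes of quartiles with whiskers from the 5th to the 95th percentile) for 5 pairs of libraries. The mitotic medians are 0.88 for both 8 and 16 h over no LPS, -0.01 for 20 h over no LPS and -0.91 for 20 h over 16 h, while the boxes stay centred on 0.

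A linear trend over 0, 8, 16 and 20 h was fitted across all measured genes, with 2 residual degrees of freedom. In edgeR's quasi-likelihood test with Benjamini-Hochberg adjustment 0 of 58 mitotic genes and 0.0% of 11803 measured genes passed. An unadjusted p under 0.05 was found for 43 measured genes (0.364%) and 0 of the 58, whose smallest unadjusted p was 0.181 (edgeR, 4 libraries). The Wald test of DESeq2 called 0 genes as well, with 25 under an unadjusted p of 0.05 and none of the 58 among them. A plateau followed by a return counts as residual spread in such a trend.

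The 58 genes are part of a larger machinery, of which 8 lists of further mitotic genes were drawn up. Of their 121 genes, 11 were higher and 0 lower at 8 h over no LPS, with a median log2 ratio of 0.37. That is 9.09% of the list, beside 4.19% of all measured genes higher in that comparison. At 16 h over no LPS 12 were higher (9.92%, beside 4.13% of all), and at 20 h over 16 h 13 were lower (10.7%, beside 3.85%). Against the same 4.19%, the counts of 1 or 2 in the single lists below are small and serve to name the genes. The nearest in kind, other G2/M transcripts, had 6 of 31 higher (median 0.67), led by the helicase gene Pif1 at 4.67, 16.8, 17.7 and 5.38 CPM and a fold of 3.59 (2.95 to 4.38). It was followed by the CDK phosphatase gene Cdkn3 (3.45-fold higher, 2.45 to 4.93) and by Depdc1a (2.87-fold, 2.05 to 4.09). The constitutive centromere network, whose proteins stay on the centromere through the cycle, had 2 of 19 higher (median 0.41): Cenpp at 2.47-fold (2.06 to 2.98) and Cenps at 2.28-fold (1.80 to 2.92). Other outer kinetochore and checkpoint genes had 1 of 16 higher, the scaffold gene Knl1 at 2.11-fold (1.97 to 2.26), beside Ska1 at 1.80-fold and Kntc1 at 1.56-fold. Cohesin, the ring that holds sister chromatids and also works in interphase, had with its regulators 1 of 14 higher (median 0.24), the shugoshin gene Sgo2a at 2.04-fold (1.87 to 2.24). In that list Cdca5 stood at 1.63-fold and the cohesin loader gene Mau2 at a fold of 0.638 (0.607 to 0.670), at 90.0 CPM at 8 h against 141 CPM with no LPS.

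The anaphase-promoting complex, the target of Cdc20, mostly lay near a ratio of 0. Of 17 subunits and regulators 1 was higher at 8 h (5.88%, near the 4.19% of all measured genes; median 0.11), its inhibitor gene Fbxo5 (EMI1) at 2.25-fold (1.97 to 2.58), with Anapc16 at a fold of 0.690 (0.641 to 0.742) and Ube2s at 1.42. Condensin II had 0 of 3 called (median 0.37, Ncapg2 at 1.5-fold, Ncapd3 at 1.30-fold and Ncaph2 at 1.26-fold), and centrosome and centriole genes 0 of 12 (median 0.32, led by Tubg1 at 1.62-fold, Sass6 at 1.55-fold and Stil at 1.52-fold). Mitotic entry kinases and phosphatases had 0 of 9 called (median 0.43). In that list Mastl stood at 1.73-fold and Ensa at 1.38-fold, while Wee1, the kinase that holds CDK1 inactive, stood at 29.3 CPM at 8 h against 48.9 CPM with no LPS, a fold of 0.599 (0.549 to 0.653).

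Regulators upstream of mitosis were mixed. Among 22 genes of the DREAM and MuvB complexes and the E2F family, which repress or activate cell cycle promoters, the median at 8 h was 0.12. Of these 3 were higher (13.6%, beside 4.19% of all measured genes). They were E2f2 at 3.17-fold (2.55 to 3.97), E2f8 at 2.39-fold (2.24 to 2.55) and Mybl2, the B-MYB partner of MuvB, at 2.01-fold (1.86 to 2.18). The interval of Mybl2 included 2. At 16 h over no LPS 2 of the 22 were higher (9.09%, beside 4.13% of all measured genes). Of 36 genes of G1/S and DNA replication 2 were higher (5.56%, near the 4.19% of all measured genes; median 0.39), the thymidine kinase gene Tk1 at 12.6, 58.2, 60.0 and 12.3 CPM (4.62-fold, 4.12 to 5.20) and the ribonucleotide reductase gene Rrm2 (2.46-fold, 2.36 to 2.58). Chaf1b stood at 1.96-fold and was not called. Below the threshold the list still leaned upward: the interval lay above 1 for 31 of the 36 genes, beside 4181 of 11803 measured genes. The list of D cyclins and CDK inhibitors also holds Cdk2, Cdk4, Cdk6, Myc and Trp53. Of its 15 genes 12 were measured and 2 were higher (median 0.17): the inhibitor gene Cdkn2d at 3.87-fold (3.01 to 5.04) and the cyclin gene Ccnd3 at 2.01-fold (1.85 to 2.19). Ccnd2, another D cyclin gene, stood at 323 CPM at 8 h against 523 CPM with no LPS, a fold of 0.618 (0.602 to 0.635). These lists were chosen with earlier results of these libraries known, and their counts describe these libraries only.

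**Figure D5:**
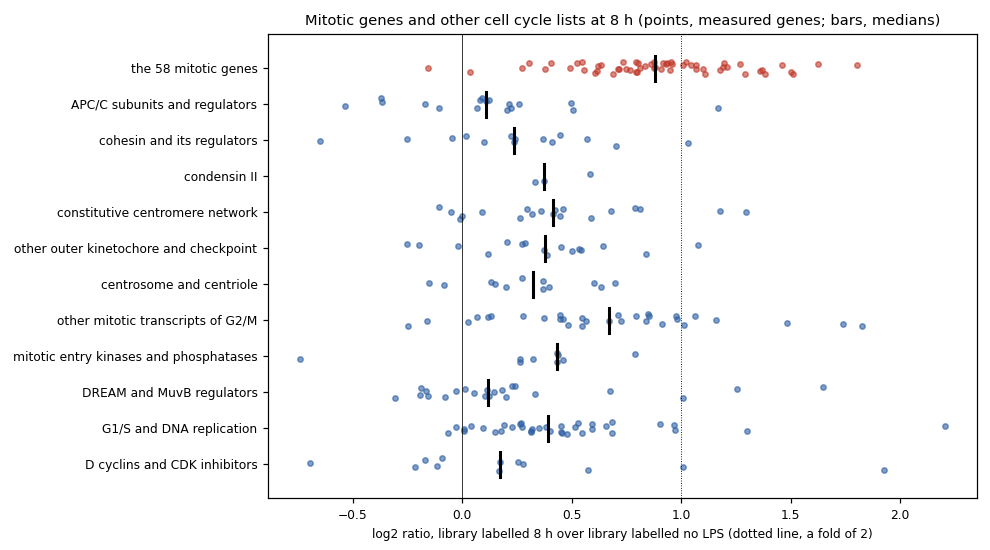
Log2 ratio of the library labelled 8 h over that labelled no LPS for each measured gene (points) of the mitotic genes and of 11 other cell cycle lists, with medians as bars and a dotted line at a fold of 2. The median of the mitotic genes, 0.88, lies right of every other list, the next being other G2/M transcripts at 0.67.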

How the data were processed

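The authors deposited unnormalized counts per gene for each library, made with STAR and featureCounts against mm10 per the submitters' processing notes. Not given in the sources used here are tool versions, the annotation used, strand handling and the treatment of multi-mapping reads. Genes with copies or overlapping neighbours are therefore uncertain. Labelled hours may mean time after LPS or the time of its injection. The labels' protocols name a further time, which is not analysed here.

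Columns were matched to samples by name. Symbols, coordinates (counted from 1), exon lengths and overlaps came from GENCODE M21 (mm10), in which 38872 of 39056 gene identifiers (99.5%) were found. Counts were scaled with TMM factors from edgeR 4.0.16 (R 4.3.3) over all 4 libraries. Folds are ratios of scaled counts with exact conditional binomial (Clopper-Pearson) 95% intervals, and log2 ratios used a prior count of 2. The reads have no molecular identifiers. Intervals and floors thus cover counting error alone, and calls compare libraries, not conditions. The trend used glmQLFit and glmQLFTest, with DESeq2 1.42.0 as an alternative. Both procedures were run on simulated counts. The simulation of the fold rule held counting error alone, so it does not cover differences between libraries of the same label. That of the trend held steady slopes, not a plateau with a return. Other steps used Python 3.11.15.

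The 58 genes and all lists were chosen with earlier results of these data known. Levels per library are given in each role group for up to 4 genes with the largest absolute log2 ratio at 8 h over no LPS and for the smallest, for Mki67, Top2a, Cdk1, Ccna2, Ccnb1, Plk1, Aurka, Aurkb, Bub1, Bub3, Cdc20, Birc5 and Foxm1 always, and folds for up to 3 genes of each further list. A gene picked in this way is not reported here. The choice of other named genes was made with their values in view. The alternatives were other scalings, prior counts, count filters, fold thresholds and interval levels, thinning to the smallest total and a correction for GC content and length.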

Additional observations from a re-analysis of the deposited data

How the results depend on the processing

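The count of called genes stayed at 20 or 21 at 8 h over no LPS, at 19 or 20 at 16 h over no LPS, between 20 and 22 at 20 h over 16 h and at 0 in the other 2 comparisons, and the medians at 8 and 16 h over no LPS between 0.86 and 0.90, under scaling by library size, DESeq2 size factors and upper quartiles, with a prior count of 0.5 or 10, without a count filter, with a minimum of 10 CPM, a stricter interval level, thinned libraries and a correction for GC content and length. The fold threshold moved the counts. At a threshold of 1.5, 48 genes were higher at 8 h over no LPS (19.9% of all measured genes called in either direction), 47 at 16 h over no LPS (20.0%) and 48 lower at 20 h over 16 h (20.7%). At a threshold of 4 the counts were 0, 0 and 0 (1.58%, 1.51% and 1.56%). The largest fold of the 58 genes in any of these comparisons was 3.69. Without the library labelled 20 h, edgeR's trend over 3 libraries again passed 0 of 58 genes, with 50 of the 58 and 2110 of 11716 genes (18%) at an unadjusted p under 0.05 and a lowest adjusted p of 0.239. No paired analysis was possible because each label has 1 library.

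Depth does not limit these genes, which had at least 272 reads in every library. The limits are 1 library per label, libraries whose markers go against their labels, and unknown handling of strand and of reads shared between genes. Strand leaves the 7 genes with more than 10% of exon bases shared with a neighbour uncertain (Kif20a, Ube2c, Kif4, Ncapg, Cdc25c, Ccna2 and Prc1), and shared 50-base stretches leave Ccnb1, Plk1 and Cdc20 uncertain too.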
